A study of Mus musculus with 24 samples.

Results

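The 7 genes described here encode sensors of extracellular acid. They are the acid-sensing ion channel subunits Asic1, Asic2 and Asic3, the heat- and proton-gated channel Trpv1, and the proton-sensing G protein-coupled receptors Gpr4, Gpr65 and Gpr132. They were chosen by name and not by a threshold on their values, though with earlier results of these data known, and all 7 were found by Ensembl identifier among the 54532 genes with a read count. RNA of the left gastrocnemius, a calf muscle, of C57/BL6 mice of genotype WT was sequenced in 24 libraries, 4 in each of 6 groups, that is 3 conditions in each sex. Controls were sedentary and received 2 saline injections of pH 7.2 into that muscle, each of 20 µl and given 5 days apart. Sedentary pain animals received injections of pH 5.0 with the same volume and spacing, the second straight after the muscle had been made to contract electrically for 6 min. Active pain animals had wheels to run on for 8 weeks and then went through these steps as well. Every library is labelled 24 h, and no age is given. All groups had needle injections, and no group had acid without contraction or running without pain induction, so the parts of each treatment cannot be told apart. The labels number the replicates without naming animals, so p-values measure the spread between these samples.

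Extracellular acid opens the acid-sensing ion channels, trimers of the same or mixed subunits that pass sodium, and it also opens or sensitises Trpv1. In muscle these channels are best known from the thin sensory fibres that report fatigue and pain, whose cell bodies lie in dorsal root ganglia outside the sampled tissue. The receptors Gpr4, Gpr65 and Gpr132 belong to a family with histidines that take up protons. Gpr4 is known from blood vessel endothelium and Gpr65 from leukocytes, both raising cyclic AMP through Gs, whereas Gpr132 is found in macrophages and lymphocytes and responds to oxidised lipids and lactate as well.

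The leukocyte receptors Gpr65 and Gpr132 differed most between the groups. In females with sedentary pain, Gpr65 had a mean of 19.2 ± 20.2 CPM (read counts scaled to library size, mean ± SD, n = 4), against 0.268 ± 0.214 in female controls. Gpr132 had 11.1 ± 11.3 against 0.388 ± 0.173 CPM in the same groups. Gpr4 was detected in all 24 libraries, between 1.64 and 6.46 CPM, and the highest value came from 1 male sedentary pain library that stood apart. The 4 channel genes lay at the edge of detection, and Asic1 was below it in every group.

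The promoters of the 3 receptors are shown because Gpr65 and Gpr132 had similar profiles across the libraries and Gpr4 did not. Each run is the 250 bases before the RefSeq start of the gene in build GRCm38.p6, read 5′ to 3′ on the gene's own strand, and capitals mark matches to 2 motifs on the opposite strand. TTCCTC is the reverse complement of GAGGAA, a core bound by the myeloid factor PU.1. ACTTCC is the reverse complement of GGAAGT, a core of the wider ETS family.
Gpr65 promoter, chr12:98268385-98268634, plus strand: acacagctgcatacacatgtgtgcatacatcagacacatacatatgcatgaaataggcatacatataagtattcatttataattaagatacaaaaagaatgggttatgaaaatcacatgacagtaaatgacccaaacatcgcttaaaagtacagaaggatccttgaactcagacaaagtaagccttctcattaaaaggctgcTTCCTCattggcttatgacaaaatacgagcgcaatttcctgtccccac
Gpr132 promoter, chr12:112860917-112861166, minus strand: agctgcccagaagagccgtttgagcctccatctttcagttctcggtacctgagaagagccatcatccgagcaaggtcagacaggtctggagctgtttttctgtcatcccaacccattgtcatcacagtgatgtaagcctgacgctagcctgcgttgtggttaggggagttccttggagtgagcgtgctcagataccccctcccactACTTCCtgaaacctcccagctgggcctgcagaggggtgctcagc
Gpr4 promoter, chr7:19212288-19212537, plus strand: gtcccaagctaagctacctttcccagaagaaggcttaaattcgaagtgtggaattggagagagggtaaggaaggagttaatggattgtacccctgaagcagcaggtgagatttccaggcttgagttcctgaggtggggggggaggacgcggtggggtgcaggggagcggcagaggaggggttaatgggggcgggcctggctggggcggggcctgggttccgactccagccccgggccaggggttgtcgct
The Gpr65 window held GAGGAA from 48 to 43 bases before the start, and the Gpr132 window held GGAAGT from 44 to 39 bases before it. The Gpr4 window held neither motif on either strand. GAGGAA and GGAAGT share the letters GGAA and can overlap. GAGGAA occurred in 23.3% of 32851 promoter windows of the same length and GGAAGT in 19.7%, so single matches are common. Among the 4 channel genes, Asic1 and Asic3 held GAGGAA and Trpv1 held GGAAGT in the same window. Asic2 has 2 RefSeq starts, and its window at chr11:81152904-81153153 held GAGGAA whereas that at chr11:81968397-81968646, near the GENCODE start of the gene, held neither motif. The 3 windows differed in base composition, with 36.8% G and C in Gpr65, 55.6% in Gpr132 and 61.2% in Gpr4.

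Total counts lay between 17612139 and 34039699 per library, and a gene was called detected in a library with more than 3 counts, a floor that equals 0.0912 to 0.175 CPM. Such floors cover counting error only. Muscle fibre markers summed to at least 102102 CPM in every library, which fits the labelled tissue. The sum was lowest in female sedentary pain replicates 4 and 3 (102102 and 111289 CPM), the libraries with the highest Gpr65 and Gpr132 levels, against 146561 to 218261 CPM in female controls. Library names carry a running number that is lower for replicates 1 and 2 than for replicates 3 and 4 in every group. Its meaning is not stated, and it may mark a batch. Values for these pairs of replicates are therefore given beside the called results of members and named pathway genes. Calls of cell type markers are given without them.

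Asic1, a subunit widely expressed in neurons (chr15:99670368-99701130 of GRCm38, plus strand, ENSMUSG00000023017), had 0 to 3 counts in every library. It was therefore below detection in all 6 groups, with a summed count of 29 over 24 libraries. Asic2, a subunit that mixes with Asic1 and Asic3 (chr11:80880169-81968457, minus strand, ENSMUSG00000020704), had 1 to 8 counts and passed the floor in 10 of 24 libraries. In female active pain its counts were 3, 1, 1 and 1 in replicates 1 to 4, which put it below detection in that group alone.

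Asic3, the subunit most tied to muscle afferents (chr5:24413392-24417835, plus strand, ENSMUSG00000038276), passed the floor in 18 of 24 libraries. Replicates 1 to 4 of the female controls held 6, 3, 11 and 4 counts, those of female sedentary pain 3, 1, 2 and 6, and those of female active pain 4, 5, 7 and 7. The male counts were 5, 8, 8 and 7 (control), 2, 4, 3 and 8 (sedentary pain) and 5, 5, 4 and 7 (active pain). Sedentary pain was the group with the lowest mean in each sex, at 0.112 ± 0.0708 CPM in females and 0.158 ± 0.0917 CPM in males (n = 4 each). In both sexes its range overlapped the ranges of the other 2 groups.

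Trpv1, the capsaicin receptor (chr11:73234292-73261242, plus strand, ENSMUSG00000005952), passed the floor in 21 of 24 libraries. Replicates 1 to 4 of the female controls held 5, 5, 30 and 8 counts, those of female sedentary pain 4, 2, 5 and 6, and those of female active pain 5, 7, 7 and 8. The male counts were 9, 4, 8 and 5 (control), 1, 4, 4 and 4 (sedentary pain) and 8, 9, 8 and 2 (active pain). One female control library thus stood apart at 30 counts, and the rest held 1 to 9. As CPM, the 4 female active pain libraries (0.243 to 0.269) lay above the 4 female sedentary pain libraries (0.117 to 0.212), a separation that 5.44% of tested genes showed in that direction. Trpv1 had too few counts to be among those tested genes, and its raw counts in the 2 groups overlapped. Without the low-count filter the log2 difference was 0.65 ± 0.61 (SE, edgeR's quasi-likelihood test, adjusted p = 0.511).

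**Figure D1:**
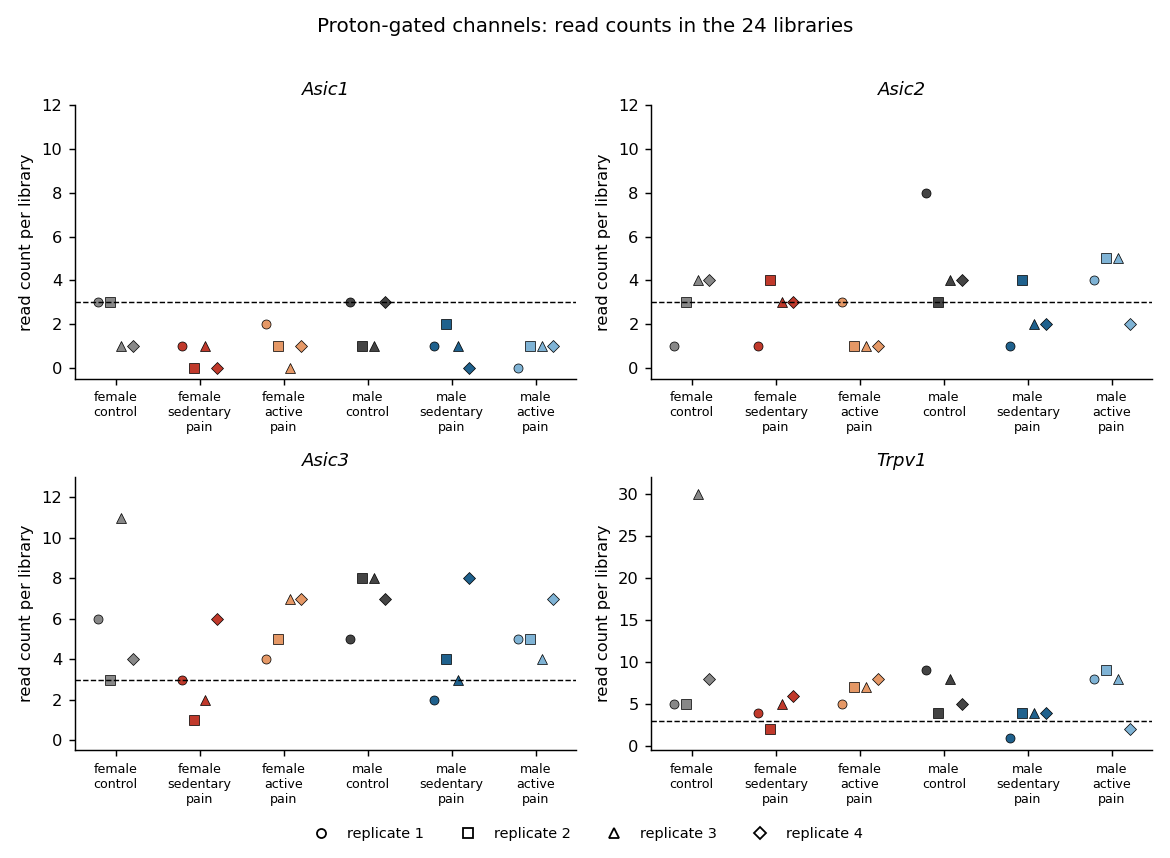
Read counts per library (vertical axis) of Asic1, Asic2, Asic3 and Trpv1 in the 6 groups, 1 point per library with the replicate as its shape. The dashed line is the floor of 3 counts: no Asic1 point lies above it, and the single high Trpv1 point is a female control library with 30 counts.

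None of the 4 channels had enough counts for the low-count filter in either sex, so they were not part of the tests across genes. When the filter was dropped, edgeR's quasi-likelihood test with Benjamini-Hochberg adjustment gave the channels adjusted p-values of 0.0876 to 1 in the 24 tests within a sex. The lowest was for Trpv1 in female sedentary pain against control, at a log2 fold change of -1.52 ± 0.59 (SE), in a fit that called 16.2% of genes. Sensory neuron markers were themselves sparse here. The nociceptor sodium channel Scn10a was at 0 in every library, and the 11 markers together summed to 3.27 to 9.87 CPM per library. Female sedentary pain had 4.01 to 6.19 CPM of these markers against 7.57 to 9.87 in female controls, with 5 and 4 of the 11 at 0 in the whole group. Only 1 of the 11, Avil, had enough counts to be tested in females, and it was called lower in that comparison (edgeR, log2 fold change -0.89), as were 13.9% of all genes tested. Their part in the channel values was not tested.

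Gpr65 (chr12:98268635-98276644, plus strand, ENSMUSG00000021886) had 0.130, 0.126, 0.234 and 0.580 CPM in replicates 1 to 4 of the female controls. In female sedentary pain it had 1.47, 3.56, 28.3 and 43.4 CPM, from 39, 61, 874 and 1230 counts. In female active pain it had 0.392, 0.600, 1.46 and 1.03 CPM. Every sedentary pain library lay above every control and every active pain library, the last by a narrow step from 1.46 to 1.47 CPM. Within sedentary pain, replicates 3 and 4 were far above replicates 1 and 2.

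Gpr65 levels in males spanned a smaller range. Controls had 0.0341, 0.175, 0.237 and 0.0314 CPM, from 1 to 7 counts. The sedentary pain libraries had 2.74, 0.268, 0.549 and 0.728 CPM, and the active pain libraries 0.861, 1.64, 0.376 and 0.514 CPM. All 8 male pain libraries lay above all 4 male controls, and the pain groups overlapped each other.

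Gpr132 (chr12:112850873-112868228, minus strand, ENSMUSG00000021298) had 0.347, 0.252, 0.312 and 0.642 CPM in female controls. In female sedentary pain it had 0.718, 4.20, 13.7 and 26.0 CPM, and in female active pain 0.539, 0.282, 2.04 and 0.638 CPM. Sedentary pain again lay above the controls in 4 of 4 libraries, but its lowest library was within the range of active pain. The male controls had 0.171, 0.245, 0.170 and 0.126 CPM of Gpr132, the sedentary pain libraries 5.09, 0.167, 0.591 and 0.764 CPM and the active pain libraries 0.689, 1.92, 0.410 and 0.554 CPM. Male active pain was above the controls in 4 of 4 libraries and male sedentary pain in 3 of 4, with 1 sedentary pain library far above the rest.

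Gpr4 (chr7:19212538-19224174, plus strand, ENSMUSG00000044317) had 52 to 160 counts and passed the floor in all 24 libraries. Female levels were 3.86, 3.24, 3.79 and 2.84 CPM (control), 3.29, 5.08, 2.24 and 2.86 CPM (sedentary pain) and 3.53, 2.40, 2.23 and 3.68 CPM (active pain). Male levels were 3.04, 2.41, 2.27 and 1.64 CPM (control), 6.46, 2.88, 3.17 and 3.02 CPM (sedentary pain) and 2.84, 2.96, 3.01 and 2.77 CPM (active pain). The ranges of all 6 groups overlapped, and 1 male sedentary pain library stood above the rest.

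**Figure D2:**
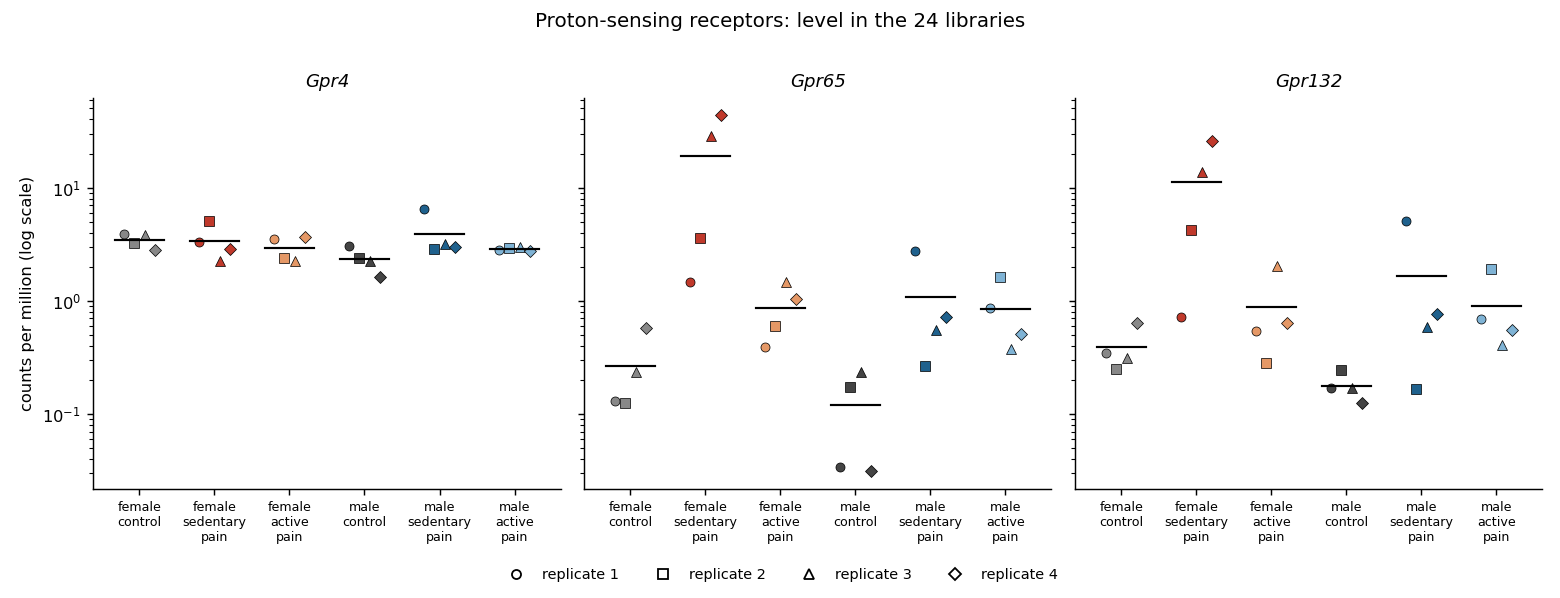
Level of Gpr4, Gpr65 and Gpr132 in CPM (log scale) in the 6 groups, 1 point per library with the replicate as its shape, and a bar at the group mean. Gpr4 stays between 1.64 and 6.46 CPM, whereas Gpr65 and Gpr132 are highest in female sedentary pain, where replicates 3 and 4 reach 28.3 and 43.4 CPM for Gpr65.

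Compared per kilobase of exon, so that genes of different length can be set side by side, Gpr4 was the most abundant member in both control groups. It had 1.19 ± 0.167 CPM per kilobase in female controls and 0.812 ± 0.199 in male controls (SD, n = 4). The next in female controls were Gpr132 at 0.143 ± 0.0638, Gpr65 at 0.129 ± 0.104 and Trpv1 at 0.125 ± 0.129 CPM per kilobase, which did not differ beyond their spread. In female sedentary pain the order changed: Gpr65 had 9.27 ± 9.77 and Gpr132 4.10 ± 4.16 CPM per kilobase, against 1.17 ± 0.424 for Gpr4. This order of means came from replicates 3 and 4. Gpr4 was still first in replicate 1, at 1.14 CPM per kilobase against 0.713 for Gpr65 and 0.265 for Gpr132, and in replicate 2, at 1.76 against 1.72 and 1.55. In the other pain groups Gpr4 remained first, with a mean of 1.03 CPM per kilobase in female active pain and 1.35 in male sedentary pain.

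For Gpr65 the order of group means was female sedentary pain, male sedentary pain (1.07 ± 1.13 CPM), female active pain (0.872 ± 0.476), male active pain (0.848 ± 0.566), female control (0.268) and male control (0.119 ± 0.103). Without male sedentary pain replicate 1, the mean of that group was 0.515 CPM, below both active pain groups. The ranges of the 3 middle groups overlapped throughout, and so did those of the 2 control groups. For Gpr132 the order was female sedentary pain, male sedentary pain (1.65 ± 2.30 CPM), male active pain (0.893 ± 0.693), female active pain (0.875 ± 0.791), female control (0.388) and male control (0.178 ± 0.0493). Without the same library the male sedentary pain mean was 0.507 CPM, again below both active pain groups. Neighbouring groups overlapped in this order, except the controls, where the lowest female library (0.252 CPM) lay just above the highest male one (0.245 CPM). The share of all genes that separate the control groups was not computed, and edgeR called 2.83% of genes between them.

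In females, sedentary pain against control tests the pain procedure in inactive animals. Gpr65 rose by 6.05 ± 1.07 (log2 fold change ± SE, edgeR's quasi-likelihood test with Benjamini-Hochberg adjusted p = 0.00346, higher in 4 of 4 libraries). Gpr132 rose by 4.78 ± 0.98 (edgeR adjusted p = 0.00585, 4 of 4 libraries). Gpr4 differed by -0.05 ± 0.27 (edgeR adjusted p = 0.886). Of 14511 genes tested in females, 33.5% were called in this comparison and 19.6% were called higher, so calls were common, and 15.3% were higher without overlap. The 3 receptors were the only members in these tests, and Gpr65 and Gpr132 each reached the filter's minimum of 10 counts in 4 of 4 sedentary pain, 3 of 4 active pain and 1 of 4 control libraries.

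The rise in Gpr65 was seen within each pair of replicates. It was 4.21 (edgeR adjusted p = 0.0477) in replicates 1 and 2, where 1.67% of genes were called, and 6.39 (edgeR adjusted p = 0.000817) in replicates 3 and 4, where 22.4% were. For Gpr132 the values were 2.98 (edgeR adjusted p = 0.142) and 5.32 (edgeR adjusted p = 0.00261). With 1 surrogate variable in the fit neither gene passed: Gpr65 had 1.71 (edgeR adjusted p = 0.32) and Gpr132 0.36 (edgeR adjusted p = 0.899).

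Female active pain against sedentary pain compares trained with inactive animals under the same procedure. Gpr65 fell by 4.42 ± 0.96 (log2, edgeR adjusted p = 0.0328, lower in 4 of 4 libraries) and Gpr132 fell by 3.65 ± 0.91 (edgeR adjusted p = 0.033, below every sedentary pain library in 3 of 4). Gpr4 differed by -0.16 ± 0.27 (edgeR adjusted p = 0.689). Of the genes tested, 11.9% were called, 9.41% were called lower, and 6.37% were lower without overlap. Both calls depended on single libraries: they were lost without active pain replicate 1, 2 or 4 or sedentary pain replicate 3 or 4, where edgeR adjusted p-values were 0.0636 to 0.101 for the 2 genes. In these fits edgeR called 0 to 3 genes in all, and over all libraries left out the log2 difference stayed between -4.84 and -3.66 for Gpr65 and between -4.53 and -2.83 for Gpr132. Both were also lost with only the 2 groups compared (edgeR adjusted p = 0.0877 each), and with no low-count filter (0.0579 for Gpr65 and 0.068 for Gpr132, at log2 differences of -4.38 and -3.61). In replicates 1 and 2 the log2 differences were -2.30 for Gpr65 and -2.58 for Gpr132 (edgeR adjusted p = 0.264 and 0.325). In replicates 3 and 4 they were -4.85 and -3.91 (edgeR adjusted p = 0.00263 and 0.00843), where 15% of genes were called. With 1 surrogate variable they were -0.62 and -0.01 (edgeR adjusted p = 1 for both).

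Female active pain against control used the same controls as the first comparison. Here the log2 difference was 1.63 ± 1.04 for Gpr65 (edgeR adjusted p = 0.837), 1.13 ± 0.96 for Gpr132 (edgeR adjusted p = 0.837) and -0.21 ± 0.27 for Gpr4 (edgeR adjusted p = 0.855). Gpr65 was above every control in 3 of 4 active pain libraries and Gpr132 in 1 of 4. By edgeR 0 of 14511 genes were called (0%), with 1020 at an unadjusted p under 0.05, and DESeq2 called 125.

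In males, sedentary pain against control gave log2 differences of 3.14 ± 0.86 for Gpr65 (edgeR adjusted p = 0.296, higher in 4 of 4 libraries), 3.20 ± 0.96 for Gpr132 (edgeR adjusted p = 0.321, 3 of 4) and 0.75 ± 0.27 for Gpr4 (edgeR adjusted p = 0.435, 2 of 4). Of 14404 genes tested in males, 0% were called by edgeR, 1273 had an unadjusted p under 0.05, and 3.95% were higher without overlap. DESeq2 called 1.9% of genes, among them Gpr65 (adjusted p = 0.0153) and Gpr132 (adjusted p = 0.0194). Each of these 2 genes reached the filter's minimum of 10 counts in 0 of 4 male control libraries. They reached it in 3 of 4 male sedentary pain and 4 of 4 male active pain libraries. Both thus entered the male tests only through the pain groups. Without the high library, sedentary pain replicate 1, the differences were 2.09 for Gpr65, 1.502 for Gpr132 and 0.39 for Gpr4, with edgeR adjusted p-values of 0.757, 1 and 1. In replicates 1 and 2 the differences were 3.78 for Gpr65 and 3.62 for Gpr132, and in replicates 3 and 4 they were 2.26 and 2.19, with edgeR adjusted p-values of 0.273 to 0.647.

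Male active pain against control, with the same controls, gave 2.79 ± 0.87 for Gpr65 (edgeR adjusted p = 0.478, higher in 4 of 4 libraries), 2.30 ± 0.97 for Gpr132 (edgeR adjusted p = 0.634, 4 of 4) and 0.31 ± 0.27 for Gpr4 (edgeR adjusted p = 0.636). In this comparison 6.34% of genes were higher without overlap, edgeR called 0%, 1045 genes had an unadjusted p under 0.05, and DESeq2 called 127, with Gpr65 at an adjusted p of 0.0737. Male active pain against sedentary pain gave -0.35 ± 0.71 for Gpr65, -0.90 ± 0.83 for Gpr132 and -0.43 ± 0.27 for Gpr4 (edgeR adjusted p = 1 for each). EdgeR and DESeq2 each called 0% of genes there, and 121 genes had an unadjusted p under 0.05. The sign for Gpr65 and Gpr132 turned without sedentary pain replicate 1, to 0.70 and 0.80.

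**Figure D3:**
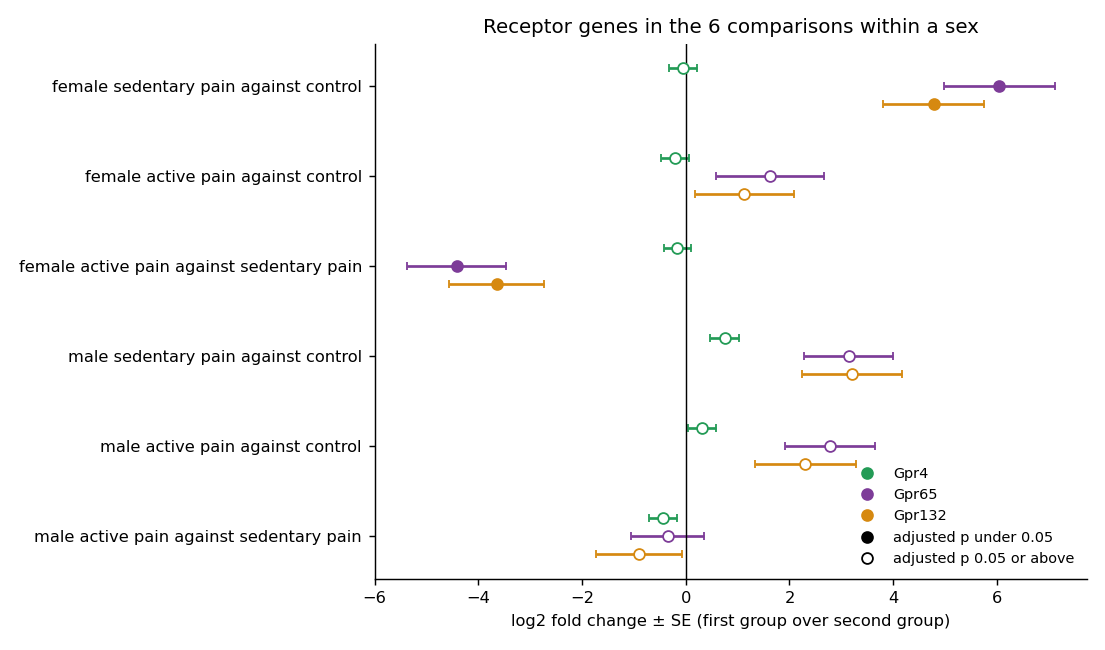
Log2 fold change ± SE (horizontal axis) of Gpr4, Gpr65 and Gpr132 in the 6 comparisons within a sex, filled where the adjusted p is under 0.05. Gpr65 and Gpr132 are filled in female sedentary pain against control (6.05 and 4.78) and in female active pain against sedentary pain (-4.42 and -3.65), Gpr4 in none.

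Whether the changes differed between the sexes was tested on all 24 libraries. For sedentary pain against control the female change exceeded the male one by 2.96 ± 1.52 for Gpr65 (edgeR adjusted p = 0.561) and 1.62 ± 1.44 for Gpr132 (edgeR adjusted p = 0.744), and the difference for Gpr4 was -0.76 ± 0.39 (edgeR adjusted p = 0.547). For active pain against sedentary pain the difference was -4.11 ± 1.22 for Gpr65 (edgeR adjusted p = 0.228), -2.79 ± 1.26 for Gpr132 (edgeR adjusted p = 0.319) and 0.24 ± 0.39 for Gpr4 (edgeR adjusted p = 0.759). For active pain against control it was -1.15 ± 1.45, -1.17 ± 1.43 and -0.52 ± 0.39 in the same order of genes (edgeR adjusted p = 1 for each). EdgeR called 0% of 15103 genes in each of these 3 tests, with 1446, 2224 and 307 genes at an unadjusted p under 0.05, and DESeq2 called 15, 133 and 3.

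The sex difference of Gpr65 in active against sedentary pain passed under some other settings. Its adjusted p was 0.0499 by DESeq2, which called 0.881% of genes. By edgeR it was 0.0228 without male sedentary pain replicate 1 (14.1% of genes called) and 0.0328 without female sedentary pain replicate 1 (4.04%). In replicates 3 and 4 alone it was 0.0108 (7.71%), with a difference of -4.31, against 0.959 and -2.03 in replicates 1 and 2. For Gpr132 the edgeR adjusted p was 0.025 without male sedentary pain replicate 1 and 0.0351 in replicates 3 and 4, with the same shares of genes called, but 0.959 in replicates 1 and 2, with a difference of -1.56, and 0.218 by DESeq2. It was 0.103 to 0.746 with each other library left out. The sex difference of Gpr65 in sedentary pain against control was 4.15 in replicates 3 and 4 (edgeR adjusted p = 0.0346, 8.51% of genes called) and 0.40 in replicates 1 and 2 (edgeR adjusted p = 1). That of Gpr132 was 3.16 in replicates 3 and 4 (edgeR adjusted p = 0.102) and turned to -0.67 in replicates 1 and 2 (edgeR adjusted p = 1). Male against female controls gave -1.22 ± 1.16 for Gpr65, -1.14 ± 1.11 for Gpr132 and -0.55 ± 0.27 for Gpr4 (edgeR adjusted p = 0.619, 0.622 and 0.354), where 2.83% of genes were called.

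Most leukocyte marker lists moved with Gpr65 and Gpr132 in females. The 7 pan-leukocyte markers, which include Ptprc (CD45), summed to 24.0 to 47.7 CPM in the female controls, to 135 to 1569 CPM with sedentary pain and to 57.4 to 169 CPM with active pain. The male sums were 17.5 to 33.3, 37.3 to 393 and 51.0 to 192 CPM in the same order of groups, and no marker of the list was at 0 in a whole group. All 7 were called higher in female sedentary pain against control (edgeR, median log2 fold change 4.33, against -0.02 over all genes tested). Of 13 macrophage and monocyte markers 12 were called higher there (median 4.17), as were all 6 neutrophil markers tested of 8, all 4 T and natural killer cell markers tested of 10 and both B cell markers tested of 5, where 19.6% of all genes were called higher. In female active against sedentary pain, 7 of 7 pan-leukocyte, 10 of 13 macrophage and 4 of 4 T and natural killer cell markers were called lower, as were 9.41% of all genes. All of these calls were lost in fits where edgeR called 0 genes in the comparison, such as with only the 2 groups compared or without active pain replicate 1. In that comparison 0 of 6 neutrophil markers (median log2 fold change -0.90) and 0 of 2 B cell markers (median -2.22) were called. The neutrophil sum did not follow Gpr65 from library to library. It was 25.9, 278, 44.0 and 64.4 CPM in female sedentary pain replicates 1 to 4, and 120 CPM in female active pain replicate 3. In female sedentary pain against control 2 of 5 pericyte and smooth muscle markers were called lower (13.9% of all genes), with sums of 198 to 309 CPM against 360 to 384 CPM in controls. Of 6 fibroblast markers 2 were called higher (19.6% of all genes), and their sums overlapped, at 462 to 1491 against 683 to 802 CPM. Their part in the receptor values was not tested. The library with the highest male Gpr65 and Gpr132 levels, sedentary pain replicate 1, also had the highest male pan-leukocyte sum. In bulk muscle RNA, more cells of a type and more RNA of a gene per cell cannot be told apart.

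Gpr65 was also set against Ptprc in the same library. It had 71.4, 63.8, 80.0 and 107 counts per 1000 Ptprc counts in the female controls. The female sedentary pain libraries had 117, 210, 212 and 349, and the female active pain libraries 121, 90.9, 113 and 107. Each female sedentary pain library lay above each female control on this scale, and 3 of 4 above each active pain library. The share of all genes that separate on this or the other ratio scales was not computed. In CPM 15.3% of tested genes were higher without overlap in female sedentary pain than in control. The separation of Gpr65 depended on the denominator. Per 1000 counts of the 7 pan-leukocyte markers Gpr65 had 5.12 to 12.2 counts (female control), 9.74 to 32.9 (female sedentary pain) and 6.83 to 11.4 (female active pain), and sedentary pain replicates 1 and 2, at 10.9 and 9.74, lay below control replicate 4. Per 1000 macrophage and monocyte marker counts it had 1.07 to 2.23, 2.76 to 6.91 and 1.27 to 2.52, and the sedentary pain libraries lay above both other groups. On the Ptprc scale male ratios were 12.8 to 72.9 (control), 55.1 to 136 (sedentary pain) and 52.2 to 125 (active pain), and the groups overlapped. Per 1000 pan-leukocyte marker counts they were 1.57 to 7.12, 6.98 to 10.02 and 7.38 to 11.3, and the active pain libraries lay above the controls. Per 1000 macrophage and monocyte marker counts they were 0.259 to 1.33, 1.28 to 2.996 and 1.11 to 3.04, and both pain groups overlapped the controls. Control ratios rest on few reads, 31 Gpr65 counts in female and 14 in male controls in all.

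Gpr132 ranges overlapped between the female groups on each of these 3 scales. Per 1000 Ptprc counts it had 107 to 190 (female control), 57.2 to 247 (female sedentary pain) and 42.8 to 167 (female active pain), and all 3 ranges overlapped. In males the ranges were 51.3 to 90.9, 48.1 to 252 and 56.2 to 147. The count ratio of Gpr65 to Gpr132 was 0.375 to 0.905 in female controls and 0.847 to 2.07 in female sedentary pain, which overlapped. These ratios were added as descriptions and carry no test.

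**Figure D4:**
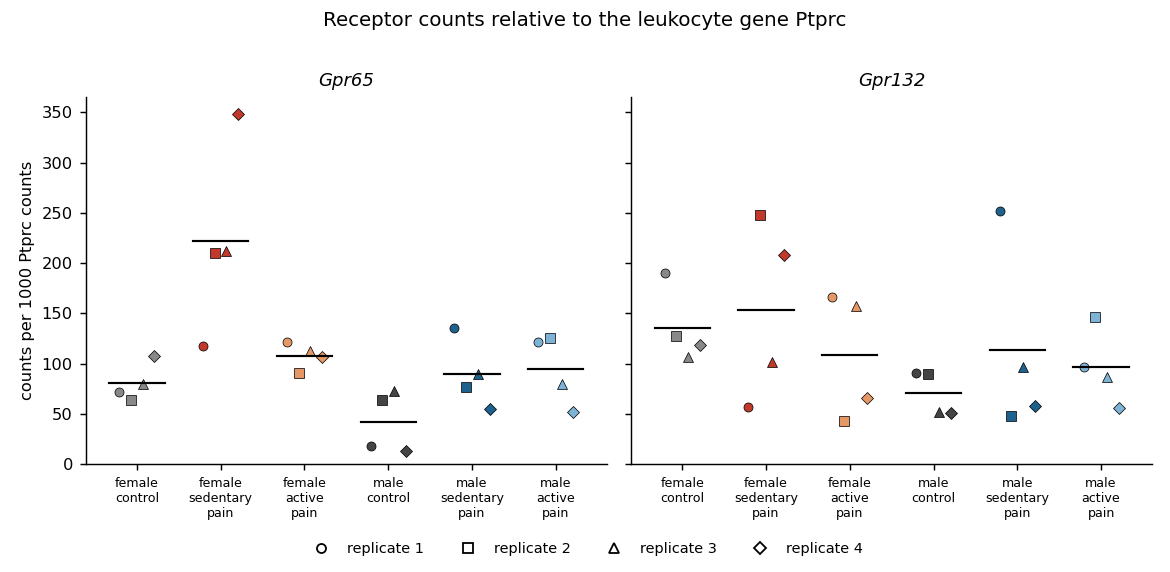
Counts of Gpr65 and Gpr132 per 1000 counts of the leukocyte gene Ptprc in the same library (vertical axis) in the 6 groups, 1 point per library with the replicate as its shape, and a bar at the group mean. For Gpr65 the female sedentary pain libraries lie at 117 to 349, above the 63.8 to 107 of the female controls, whereas the Gpr132 ranges overlap, as do those of Gpr65 per 1000 pan-leukocyte marker counts, which are not plotted (5.12 to 12.2 and 9.74 to 32.9). The share of all genes that separate on these scales was not computed.

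Gpr4 was set against 11 endothelial markers, such as Pecam1 and Cdh5. Their sum was 220 to 349 CPM over all 24 libraries, and 0 of 11 were called higher and 3 lower in female sedentary pain against control, against 19.6% and 13.9% of all genes. Per 1000 endothelial marker counts Gpr4 had 8.30 to 12.9 counts (female control), 8.86 to 17.3 (female sedentary pain) and 8.77 to 11.5 (female active pain). Male ranges were 6.62 to 9.81 (control), 9.94 to 20.4 (sedentary pain) and 9.18 to 10.2 (active pain). The male sedentary pain libraries thus lay above the male controls on this scale, by a narrow step from 9.81 to 9.94. In CPM these groups overlapped. The separation was not tested, and the share of all genes that separate on this scale was not computed.

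**Figure D5:**
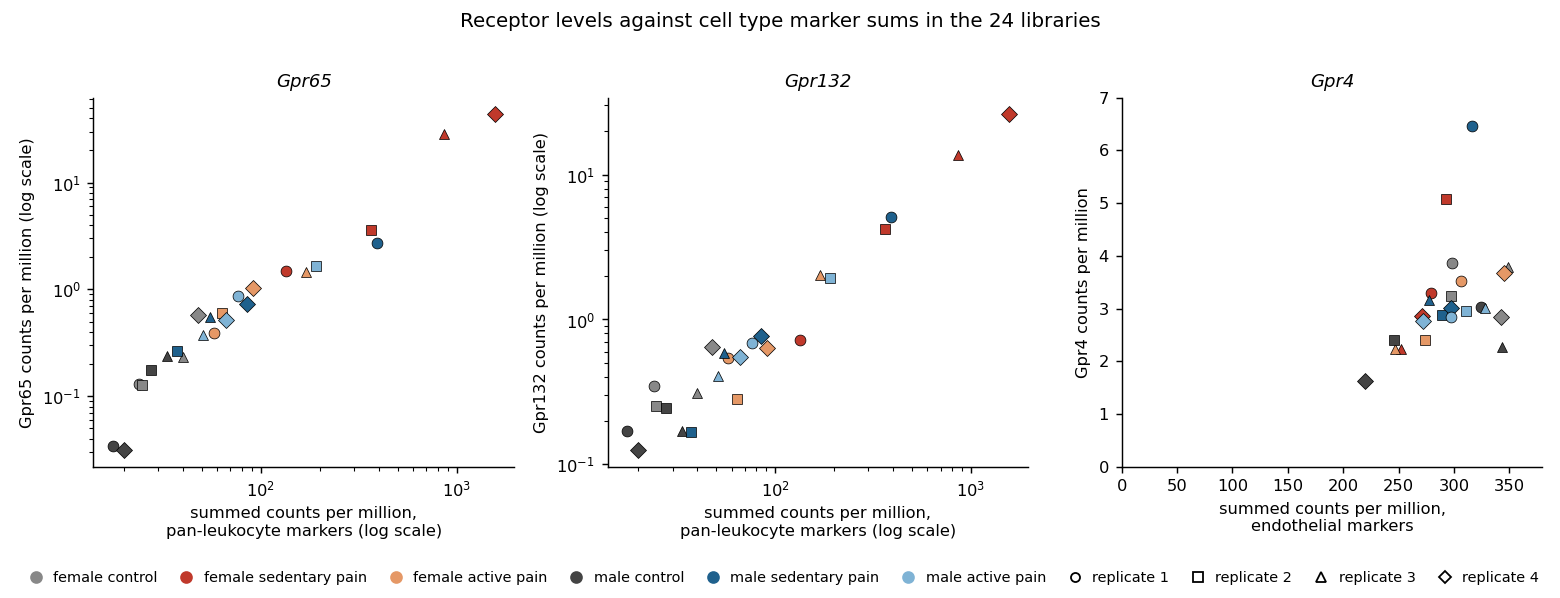
Gpr65 and Gpr132 against the summed pan-leukocyte markers (both axes in CPM, log scale) and Gpr4 against the summed endothelial markers (linear axes), 1 point per library, group by colour and replicate by shape. Gpr65 and Gpr132 increase with the leukocyte sum up to the female sedentary pain library at 1569 CPM, whereas the endothelial sum stays within 220 to 349 CPM.

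Genes with the most similar profiles were listed by Spearman's rho of log2 CPM over the 24 libraries, among 12367 genes (12366 for Gpr4) whose mean log2 CPM was 0 or more. For Gpr65 they were Fgr (rho 0.988), Spi1 (0.984), Ptpn6 (0.983), Tmem173 (0.983) and Hk3 (0.982). Fgr is a myeloid tyrosine kinase, Spi1 is the gene of PU.1, and Ptpn6 encodes the phosphatase SHP-1. For Gpr132 they were Irf9 (0.964), a subunit of the interferon-activated complex ISGF3, Mcub (0.963), Tifab (0.955), the channel gene Trpv2 (0.953) and the kinase gene Csk (0.952).

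Gpr4 had weaker partners, namely BC003965 (rho 0.708), Mrm3 (0.705), the endothelial nitric oxide synthase gene Nos3 (0.689), the venous ephrin receptor gene Ephb4 (0.685) and the adenylyl cyclase gene Adcy4 (0.66). Gpr65 and Gpr132 had a rho of 0.922 with each other, and Gpr4 had 0.06 with Gpr65 and 0.17 with Gpr132. With Ptprc the values were 0.956 for Gpr65, 0.885 for Gpr132 and -0.04 for Gpr4. With the endothelial marker Pecam1 they were 0.561 for Gpr65, 0.595 for Gpr132 and 0.443 for Gpr4, so Gpr4 was lowest there too. These values describe the libraries, which share groups, depth and cell content, and carry no test.

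Of 14 other acid-sensing channels and receptors, 6 had enough counts to be tested in females. In female sedentary pain against control 1 of them was called higher and 2 lower, with a median log2 fold change of -0.86 against -0.02 over all genes tested, where 19.6% were called higher and 13.9% lower. Pacc1, a chloride channel opened by acid, rose by 0.82 ± 0.25 (log2, edgeR adjusted p = 0.03). The 2-pore potassium channel genes Kcnk2 (TREK-1) and Kcnk3 (TASK-1, closed by acid) fell by 2.09 ± 0.40 and by 3.45 ± 0.90 (edgeR adjusted p = 0.00439 and 0.0162). Kcnk3 had 1.08, 0.715, 13.0 and 9.71 CPM in the female controls and 0.282 to 1.04 CPM in female sedentary pain, so the control libraries were themselves far apart. In that comparison 4 of 5 adipocyte markers were called lower too, with sums of 155 to 3577 CPM in the controls and 64.0 to 463 CPM with sedentary pain, and their part in the Kcnk3 value was not tested. None of these 3 genes passed in replicates 1 and 2 alone, with log2 differences of 0.29 for Pacc1, -1.34 for Kcnk2 and -0.98 for Kcnk3 (edgeR adjusted p = 0.573, 0.155 and 0.398). In replicates 3 and 4 they were 1.242, -2.71 and -4.09 (edgeR adjusted p = 0.0303, 0.0189 and 0.00331).

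In female active against sedentary pain, 1 of the 6 was called higher and none lower. Kcnk2 rose by 1.45 ± 0.40 (log2, edgeR adjusted p = 0.0395), where 2.51% of all genes were called higher. This call was lost wherever edgeR called 0 genes in the comparison, which was with only the 2 groups compared, with 1 surrogate variable, in replicates 1 and 2 only, and without active pain replicate 1, 2 or 4 or sedentary pain replicate 4. In replicates 1 and 2 the log2 difference of Kcnk2 was 0.98 (edgeR adjusted p = 0.439). In replicates 3 and 4 Kcnk2 did not pass either (log2 difference 1.88, edgeR adjusted p = 0.0839). None of the 6 passed in female active pain against control, and none of 5 in the male comparisons, where edgeR called no gene at all. Among the 8 untested genes in females, Otop2, Otop3 and Kcnk9 had no count in any library.

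Of 25 partner and signalling genes 23 were tested, and in female sedentary pain against control 5 were called higher and 5 lower (edgeR, median log2 fold change -0.11), against 19.6% and 13.9% of all genes, so higher calls were about as common in this list as over all genes. The 6 with the smallest p were Arhgef1, Stoml1, Rhoa, Rapgef3, Adcy7 and Gnas. Arhgef1, an exchange factor that links G12/13-coupled receptors to Rhoa, rose by 1.03 ± 0.21 (edgeR adjusted p = 0.00597), and Rhoa rose by 0.83 ± 0.18 (edgeR adjusted p = 0.00735). Adcy7, an adenylyl cyclase, rose by 1.83 ± 0.49 (edgeR adjusted p = 0.0184), and Stoml1, a stomatin-like protein that can modulate acid-sensing channels, by 0.61 ± 0.13 (edgeR adjusted p = 0.00619). Gnas, which encodes the Gs alpha subunit, fell by 0.57 ± 0.16 (edgeR adjusted p = 0.0228), and Rapgef3, the cyclic AMP-activated exchange factor Epac1, fell by 0.80 ± 0.22 (edgeR adjusted p = 0.0183). None of the 6 passed in replicates 1 and 2 alone (edgeR adjusted p = 0.154 to 0.671), where Adcy7 had a log2 difference of 0.30 against 2.69 in replicates 3 and 4. In replicates 3 and 4, 5 of the 6 passed, and Gnas did not (edgeR adjusted p = 0.106). In female active against sedentary pain Arhgef1 fell by 0.86 ± 0.21 and Rhoa by 0.67 ± 0.18 (edgeR adjusted p = 0.033 and 0.0378), with 0 of 23 higher. The 2 of 23 called lower compare with 9.41% of all genes, so they are at the background of the comparison. Both calls were lost under the same settings with 0 genes called, and both passed in replicates 3 and 4 (edgeR adjusted p = 0.0189 and 0.0474). In replicates 1 and 2 the log2 differences were -0.56 for Arhgef1 and -0.45 for Rhoa (edgeR adjusted p = 0.459 and 0.43). No partner gene passed in the other comparisons within a sex.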

How the data were processed

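RNA of 24 mouse left gastrocnemius samples was measured in 6 groups of 4, taken from the sample titles. Per the labels' protocols, RNA was isolated with a fibrous-tissue column kit and made into stranded paired-end libraries. The deposited files hold raw read counts per Ensembl gene, whole numbers with no normalization found. The submitters' processing notes name HISAT2 2.1.0, Salmon 0.9.1, featureCounts and DESeq2 1.24.0, and the builds mm10 and GRCm38.p6, without their roles. The strand setting of the counting is not given in the sources used here, so reads of a gene and its antisense partner cannot be told apart. The antisense gene Gm47566 shares 511 exon bases with Gpr65 and had 0 counts in every library, and no gene shares exon bases with the other 6 members.

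Symbols were found for 54409 of 54532 genes, and positions came from GENCODE M21 (GRCm38). The 142 listed symbols all matched, Pacc1 through its older name Tmem206. Promoters are from RefSeq (GRCm38.p6), and the RefSeq start of Gpr132 lies inside the GENCODE gene. Library sizes were scaled by TMM, filterByExpr at a minimum count of 10 removed low genes, and edgeR 4.0.16 quasi-likelihood F tests (robust, two-sided, R 4.3.3) were fitted per sex on 12 samples. Sex differences used all 24. P-values were adjusted by Benjamini-Hochberg over all genes tested, at 0.05. The SE is the log2 fold change divided by the root of F. Log2 CPM for Spearman's rho used a prior count of 2. Alternatives were RLE scaling, DESeq2 1.42.0, no low-count filter, a joint fit of all 24 samples, a fit to just the 2 groups of a comparison, the replicate block, a batch of replicates 1 and 2 against 3 and 4, 1 surrogate variable (sva 3.50.0), a GC and length correction with and without the block, and each replicate left out. Fits to replicates 1 and 2 only and to 3 and 4 only were added after seeing the data. The fit was tested on simulated data, with the same spread given to all genes. It recovered 32% of 2-fold changes in each sex. Of 4-fold changes it recovered 98% in females and 100% in males, with 8 and 6 false calls.

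Genes named are the 7 members, up to 6 genes per pathway list and comparison that passed the threshold, and the 5 genes most like each receptor. One gene of a pathway list is not reported here, and it stayed in the fits over all genes. Cell type lists hold hand-picked markers. The members and lists were chosen with earlier results of these data known. Replicate numbers recur in every group but were found not to pair the samples. SciPy 1.17.1, pandas 2.3.3 and matplotlib 3.10.9 were used in Python 3.11.15.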

Additional observations from a re-analysis of the deposited data

Results flagged for a closer look

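Asic1, below detection throughout, was left out. Among the 36 pairs of another member and a group, 5 held a library set apart from the other 3 by Dixon's criterion at 95%, where chance alone gives about 1 in 20. Gpr132 was at 5.09 CPM in male sedentary pain replicate 1 (126 counts), and Gpr4 was at 6.46 CPM in the same library (160 counts). This library also held the highest male pan-leukocyte sum, 393 CPM. Trpv1 was at 1.17 CPM in female control replicate 3 (30 counts), the library with the highest adipocyte marker sum, 3577 CPM; female control replicate 4 had 1910 CPM of these markers and 0.244 CPM of Trpv1. Trpv1 was also highest in female active pain replicate 3, at 0.269 CPM (7 counts), where the group spans only 0.243 to 0.269 CPM. Asic2 was at 0.147 CPM in female active pain replicate 1, which is 3 counts against 1 in each of the others. The part of other cell types in these values was not tested.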

How the results depend on the processing

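Gpr65 and Gpr132 kept their direction in female sedentary pain against control under all settings tried, as the report gives, and leaving out each library in turn kept both calls. Called genes numbered 4867 in that comparison. They were 2847 with only the 2 groups compared, 61 with 1 surrogate variable, 238 in replicates 1 and 2 only, and 2486 to 6674 with each library left out. Female active against sedentary pain had 1730. It had 3010 by DESeq2, 174 without the low-count filter, 0 with only the 2 groups compared, with 1 surrogate variable or in replicates 1 and 2 only, 2745 with the batch term, and 0 to 4316 with each library left out. With the replicate block the counts were 3739 and 1629, and no member's call changed; with the GC and length correction and the replicate block, female active against sedentary pain had 2921. Same-numbered samples' residuals had a mean correlation of 0.103 in females and 0.00654 in males, and a sample's best match in another group bore its own number in 6 of 24 and 5 of 24 cases.

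Comparisons with 0 calls moved as follows. Female active pain against control had 125 by DESeq2, 5 with 1 surrogate variable, 1 with the GC and length correction and replicate block, and 155 in replicates 3 and 4 only. Male sedentary pain against control had 270 by DESeq2 and 6 with 1 surrogate variable, and male active pain against control 127 and 6. The sex difference of sedentary pain against control had 15 by DESeq2, 1349 in replicates 3 and 4 only and 0 to 18 with each library left out. That of active pain against control had 3, 11 and 0 to 1. That of active against sedentary pain had 133, 1222 and 0 to 2174, and 3 with the batch term. Male against female controls had 427, but 720 by DESeq2, 988 with 1 surrogate variable, 12 in replicates 1 and 2 only, 885 in replicates 3 and 4 only, and 198 to 622 with each library left out.

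Some signs turned, most of them for Gpr4, whose values lay near 0. Gpr4 in female sedentary pain against control became 0.25 with 1 surrogate variable, 0.22 in replicates 1 and 2 only, and -0.30 to 0.13 with each library left out (0.02 and 0.04 without control replicate 1 or sedentary pain replicate 4). In female active against sedentary pain it became 0.10 and 0.14 with the GC and length correction, without and with the replicate block, 0.22 in replicates 3 and 4 only, and -0.34 to 0.073 with each library left out. Its sex difference in active against sedentary pain became -0.11 without male sedentary pain replicate 1, of a range up to 0.51. In male active against sedentary pain, Gpr65 and Gpr132 became 0.70 and 0.80 without that library, the tops of ranges from -0.88 and -1.58. The sex difference of Gpr132 in sedentary pain became -0.67 in replicates 1 and 2 only. The causes were not tested. With a floor of 10 counts, 1 of 7 members was detected in every library of each control group, and with a floor of 1 count all 7 were.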

Other observations

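Among the other acid-sensitive genes, Kcnk3 and Otop1 separated the female controls into high and low libraries. Kcnk3, a potassium channel closed by acid, had 1.08, 0.715, 13.0 and 9.71 CPM in replicates 1 to 4, and Otop1, a proton channel, had 0.260, 0.126, 2.26 and 2.57 CPM. Over the other 5 groups Kcnk3 stayed at or below 2.11 CPM and Otop1 at or below 0.401 CPM. The 5 adipocyte markers summed to 290, 155, 3577 and 1910 CPM in the same 4 control libraries and to at most 497 CPM elsewhere. The part of adipose tissue in these values was not tested.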
